A study of Rattus norvegicus with 18 samples.

Results

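The comparison described here is that of cultures given memantine in the glutamate model with cultures given glutamate alone. Groups were taken from the sample titles, which put 3 libraries in Memantine and 3 in Glutamate, 6 of the 18 libraries of the series. All were RNA libraries of primary neuroglial cultures, in which neurons of the rat brain cortex grow together with glial cells. The cultures came from newborn Wistar rats and received cytosine arabinoside, which limits the division of glial cells. On day 10 in vitro both groups were exposed to 100 µM glutamate for 1 h. Memantine, also at 100 µM, was added together with the glutamate, and RNA was taken 4 h after the model. The label Memantine does not itself name glutamate, and the design text and the methods place it there. The 3 Control libraries came from cultures without glutamate and are given beside the others as background.

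Glutamate opens the N-methyl-D-aspartate (NMDA) receptor, a channel that lets calcium into neurons, and a long or strong exposure overloads the cell with calcium and can kill it. This form of damage is called excitotoxicity. Memantine blocks the open NMDA channel and is used as a medicine in Alzheimer's disease. The question of the comparison was how far the blocker changed the expression profile of cultures under glutamate.

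The 6 libraries held between 10406915 and 13354633 estimated counts, and between 15795 and 16963 genes with a count. The share of ribosomal RNA in Memantine 1, 2 and 3 was 13.9%, 4.16% and 8.82%, against 17.3%, 8.0% and 20.4% in the Glutamate libraries of the same number. It was thus lower in the Memantine library of every pair, and its part in the differences was not tested beyond a fit with this share as a covariate. Replicate numbers paired the libraries, since those with the same number deviated together from their group means, and pairs 1, 2 and 3 below stand for Memantine and Glutamate of that number. Expression is given in CPM, here the count scaled to the library size multiplied by a normalisation factor (TMM). In the 6 libraries this factor was between 0.721 and 1.58. CPM summed over all tested genes therefore differed between libraries, as with 1221450 in Memantine 1 and 633478 in Memantine 2. Control 1 stood apart from the other Controls, with 43.0% ribosomal RNA beside 6.80% and 6.58% in Control 2 and 3. It had the lowest total of the 18 libraries, 8409574 counts, and a factor of 0.417. Its CPM summed to 2400300, beside 729246 and 704418 in Control 2 and 3, and its values below are to be read with that limit.

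Memantine 3 stood apart from Memantine 1 and 2. The summed level of 15 neuron markers was 4129, 2705 and 791 CPM in Memantine 1, 2 and 3. In Glutamate it was 1393, 810 and 875 CPM, and in Control 3536, 3258 and 2370 CPM. Memantine 1 and 2 therefore lay within or above the range of Control, whereas Memantine 3 lay below every Glutamate library. For microglia the order was turned. The 13 microglia markers summed to 63.8, 95.7 and 617 CPM in Memantine 1, 2 and 3 and to 222, 195 and 519 CPM in Glutamate. Here Memantine 1 and 2 were below all Glutamate libraries and Memantine 3 was above them. The 11 astrocyte markers gave 4970, 3877 and 11328 CPM against 7491, 5977 and 12018 CPM, with Memantine below Glutamate in each pair. The 13 oligodendrocyte lineage markers gave 605, 1211 and 1346 CPM against 1309, 1777 and 1380 CPM, also below in each pair. For microglia and astrocytes the third library was the highest in Glutamate as well as in Memantine. In such bulk samples fewer cells of a type and less RNA per cell cannot be told apart. The third pair is therefore stated on its own below, per gene where CPM are given and otherwise for the list, in the text or in the plot of list medians.

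**Figure D1:**
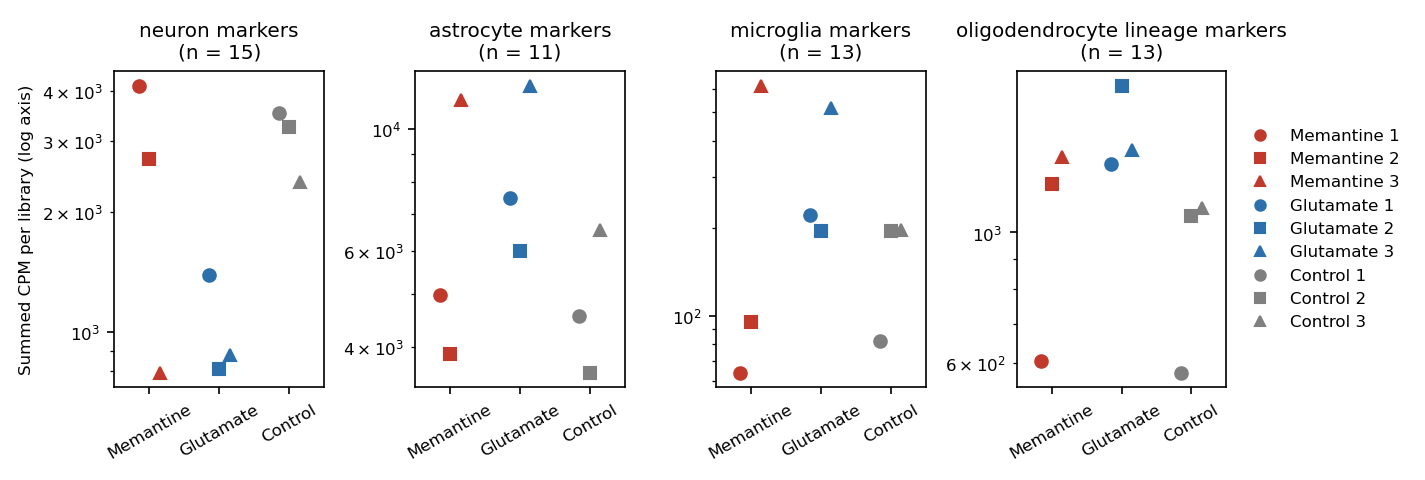
Summed CPM of the marker genes of 4 cell types in each library, on a log axis, for Memantine, Glutamate and Control (symbols give the replicate number, colours the group). For neuron markers, Memantine 1 and 2 lie at 4129 and 2705 CPM and Memantine 3 at 791 CPM, beside 810 to 1393 CPM in Glutamate.

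Markers of the labelled cells were present. Those of neurons (Stmn2, Tubb3), astrocytes (Gfap), the oligodendrocyte lineage (Cnp, Olig1) and microglia (C1qa, Cx3cr1) were all measured. Of the endothelial markers, 2 of 9 in the files passed the filter on low counts, and Pecam1 and Egfl7 were at most 2.71 CPM in the 6 libraries. Of 12 fibroblast and mural cell markers 8 passed the filter. Acta2, Dcn, Lum and Rgs5 did not pass it, and Col1a1 was at most 3.02 CPM, whereas Tagln was at 38.4 to 395 CPM in the 6 libraries.

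Across all genes, 14398 genes were tested in the paired fit of edgeR. With all libraries 0 passed after adjustment at 0.05, where 0.269 was the lowest adjusted p, and 1156 had an unadjusted p under 0.05. The edgeR likelihood-ratio test called 98 genes and DESeq2 201, all of them higher in Memantine. A laxer criterion, an unadjusted p below 0.05 with a change of over 1.5-fold, was met by 1146 genes (7.96% of those tested). The study's text gives these thresholds with its gene counts without saying whether p was adjusted, and its methods name a false discovery rate. Of these, 1031 (7.16%) were higher and 115 (0.799%) were lower in Memantine. These genes are said below to pass the unadjusted criterion, which does not correct for the number of genes. Each count of list members below is to be read beside these shares of 7.16% and 0.799%. The lists were chosen with earlier results of these data known, so that their counts are descriptive. The study's methods state in general that experiments were repeated on unrelated cultures, but do not say this of the RNA libraries. A supplementary figure of the study used batch-corrected counts of the Memantine and Glutamate groups, and its caption does not name the batch. The p-values therefore measure only the spread between these libraries, which may be technical.

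The count rested on Memantine 3. Without it, 745 of 14650 genes passed the adjusted p of the same edgeR fit (5.09%), 623 higher (4.25%) and 122 lower (0.833%). The unadjusted criterion then gave 2932 genes, 1713 higher (11.7%) and 1219 lower (8.32%). Leaving out Memantine 1 instead gave 540 genes by that criterion, Memantine 2 gave 729 and Glutamate 2 gave 713, and 0 genes passed the adjusted p in each. Without Glutamate 1 and without Glutamate 3 it gave 841 and 868 genes, again with 0 past the adjusted p. In the fit without the block 0 genes passed the adjusted p with all libraries, and 729 met the unadjusted criterion (5.06%), 700 higher (4.86%) and 29 lower (0.201%).

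**Figure D2:**
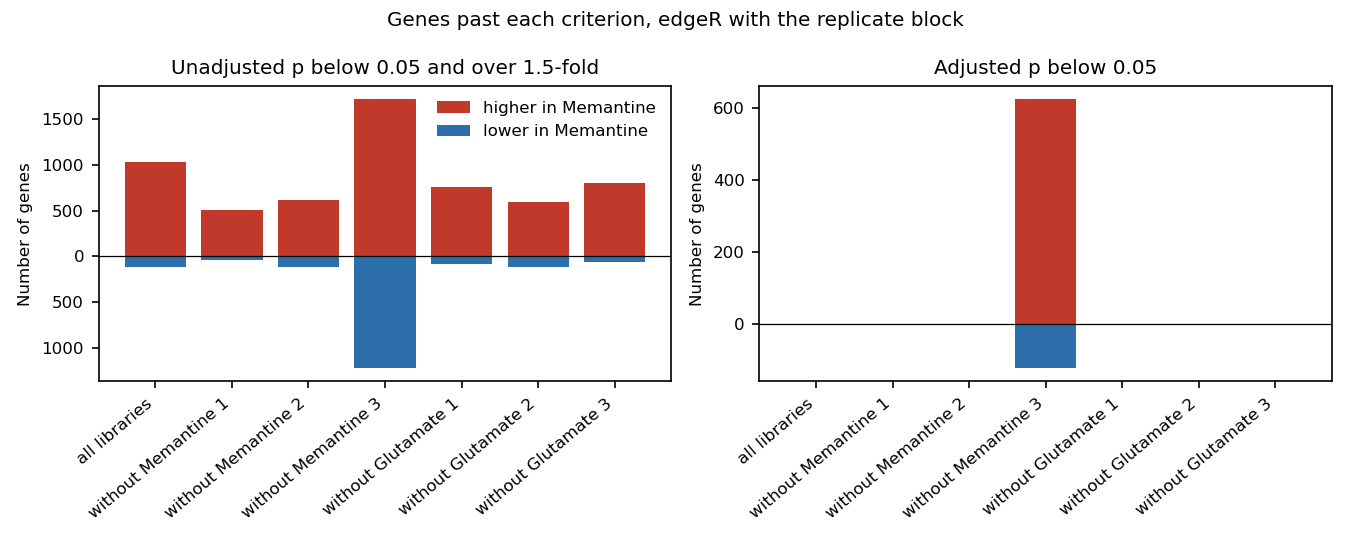
Number of genes past the unadjusted criterion (left) and past the adjusted p of edgeR (right) with all libraries and without each of the 6 libraries in turn, with genes higher in Memantine above the line and lower ones below it. Only the fit without Memantine 3 has genes past the adjusted p, 623 higher and 122 lower.

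The third pair differed from the others gene by gene. Within pair 1, 3870 genes (26.9%) were over 1.5-fold higher in Memantine and 3707 (25.7%) over 1.5-fold lower. Within pair 2 these were 2902 (20.2%) and 2687 (18.7%), and within pair 3 they were 1055 (7.33%) and 2349 (16.3%). Over genes, the differences of pair 1 and pair 2 had a Pearson r of 0.54, while pair 3 gave -0.05 with pair 1 and -0.06 with pair 2. These values describe 14398 genes, which are not independent replicates. Of the 1031 genes past the unadjusted criterion on the higher side, 696 were also higher in pair 3, where their median difference was 0.19 on the log2 scale, after 1.59 and 1.76 in pairs 1 and 2. All 3 pairs had gone into that choice, and these values only describe it. The 622 genes that edgeR called higher without Memantine 3, and that were tested in both fits, offer a view of pair 3 in which its Memantine library took no part in the choice, though Glutamate 3 did. Their medians were 1.72 and 1.98 in pairs 1 and 2 and 0.09 in pair 3. There 362 genes were higher and 260 lower (58.2% higher, beside 49.4% of all tested genes). The 122 genes called lower had medians of -1.63, -1.01 and 0.04, with 72 higher and 50 lower in pair 3 (59.0% higher). The split by sign in pair 3 was thus much alike in both sets. In 412 genes (2.86%) the ranges of CPM were fully apart, with Memantine above in 250 (1.74%) and below in 162 (1.13%).

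**Figure D3:**
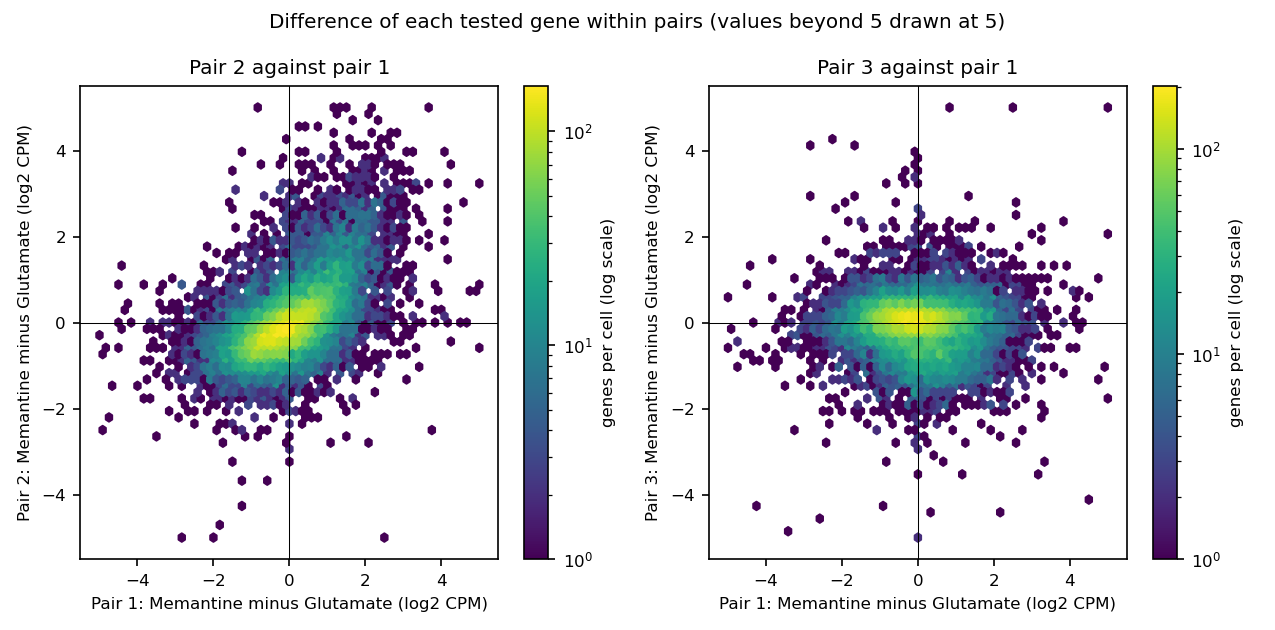
Memantine minus Glutamate (log2 CPM) of each of 14398 genes within pair 2 (left) and pair 3 (right), against the same difference within pair 1, with colour for the number of genes on a log scale. Points follow the diagonal in the left panel (r = 0.54) and show no such trend in the right (r = -0.05).

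The 12 genes with the smallest p among those higher in every pair included several of neurons and their synapses. Klhdc8a, a protein with kelch repeats, was at 12.6, 5.72 and 2.95 CPM in Memantine 1, 2 and 3 and at 1.16, 0.571 and 1.07 CPM in Glutamate. All Memantine libraries were above all Glutamate libraries, and Control had 10.3, 7.41 and 4.15 CPM. The fitted change was 6.79-fold, a log2 fold change of 2.76 (SE 0.53, edgeR unadjusted p = 8.55e-05, adjusted p = 0.269). Rgs6, a regulator of G protein signalling, was also above throughout, with 10.2, 25.2 and 2.66 CPM against 1.68, 2.10 and 1.56 CPM. So was LRRTM1, a postsynaptic adhesion protein that the files spell in capitals, with 19.9, 26.7 and 8.55 CPM against 5.17, 6.79 and 6.52 CPM. The membrane proteins Tmem150c and Tmem145 had log2 fold changes of 1.98 (SE 0.46) and 2.23 (SE 0.53) and ranges that did not overlap either. In each of these 5 genes Memantine 3 was the lowest of its group, and closest to Glutamate.

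In the other 7 the groups overlapped. Slc17a7 encodes the vesicular glutamate transporter VGLUT1, which loads glutamate into synaptic vesicles of cortical excitatory neurons. It was at 104, 80.3 and 8.26 CPM in Memantine against 16.4, 3.81 and 4.09 CPM in Glutamate, and at 51.4, 78.3 and 52.9 CPM in Control. Memantine 3 had about the level of the Glutamate libraries, under Glutamate 1 and over Glutamate 2 and 3. The log2 fold change was 3.02 (SE 0.71) with all libraries and 3.6 without Memantine 3 (edgeR adjusted p = 0.00505). Hpcal4, a neuronal calcium sensor, gave 80.6, 56.7 and 11.7 CPM against 18.9, 10.6 and 6.81 CPM. Agtpbp1 removes glutamate residues from tubulin and is needed for the survival of some neurons. It gave 151, 214 and 23.9 CPM against 38.0, 40.1 and 18 CPM. Ndrg1, a gene induced by low oxygen and other stress, gave 149, 137 and 19.5 CPM against 32.3, 11.3 and 14.4 CPM. The remaining 3 were Sprn (a prion-like protein, log2 fold change 2.32), Rtn4rl1 (a relative of the Nogo receptor, 2.90) and Spock1 (a proteoglycan, 2.65). Without Memantine 3, edgeR called all 12 genes, with adjusted p between 0.00377 and 0.00595. The other libraries had already gone into the choice of these genes, so that these calls are not independent support.

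**Figure D4:**
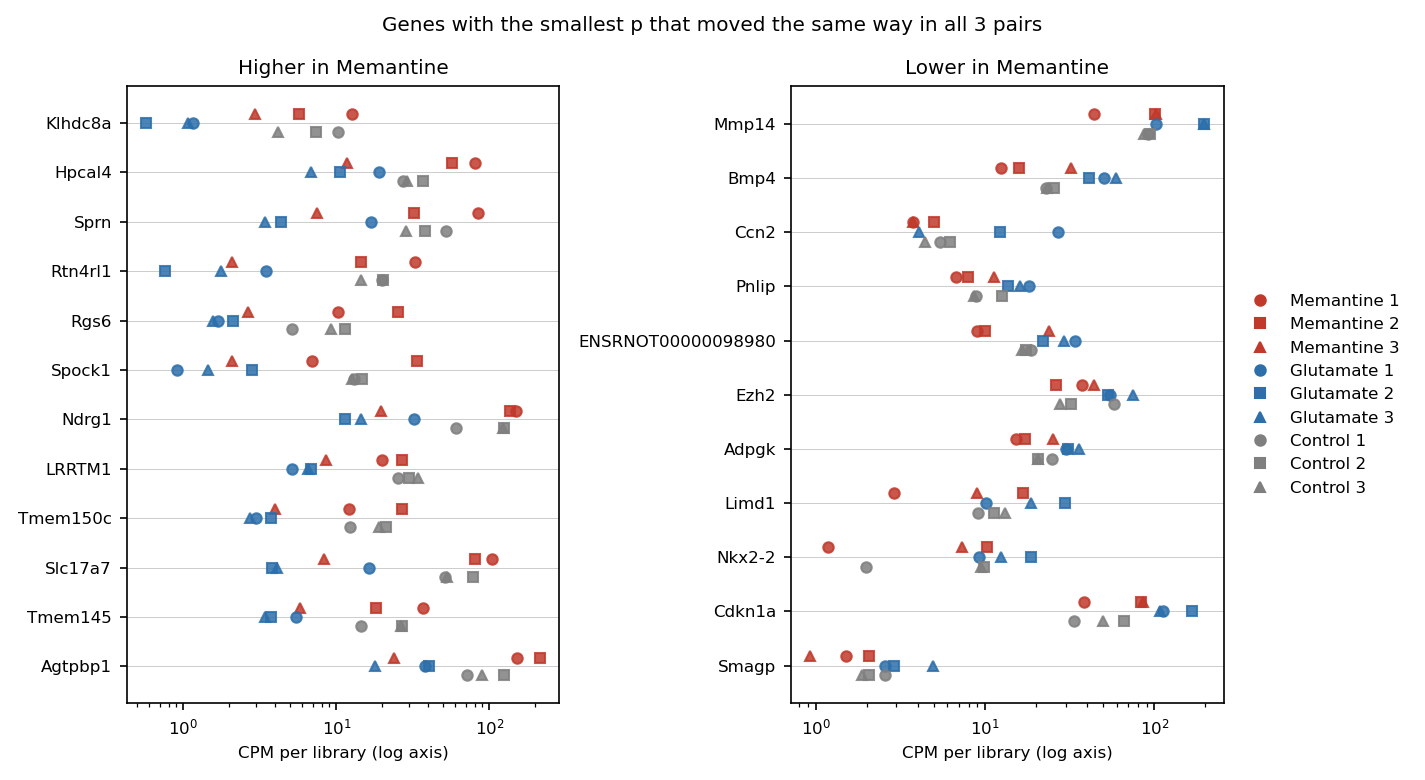
CPM of each library, on a log axis, for the 12 higher genes and 11 of the 12 lower genes of smallest p that differed in the same direction in all 3 pairs (colours give the group, symbols the replicate number). On the left, Memantine 3 (triangle) lies close to Glutamate, as for Slc17a7 with 8.26 CPM beside 3.81 to 16.4 CPM.

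Because Slc17a7 had the largest fold change of these 12 genes, its promoter is shown, as the 250 bases before the start of the gene in RefSeq (GRCr8, chr1:104785955-104786204, plus strand). Capitals mark the GC box letters GGGCGG on either strand, which began 98, 46 and 41 bases before the start.

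Slc17a7: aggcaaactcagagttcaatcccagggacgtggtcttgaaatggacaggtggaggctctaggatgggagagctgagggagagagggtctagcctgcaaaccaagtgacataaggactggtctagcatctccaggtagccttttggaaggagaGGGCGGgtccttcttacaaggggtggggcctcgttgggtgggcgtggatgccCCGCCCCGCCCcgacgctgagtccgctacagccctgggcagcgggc

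The NMDA receptor subunits are the target of memantine, and each receptor holds the obligatory subunit Grin1. All 7 subunit genes were tested, and their median log2 fold change was 1.54, where the median of all tested genes was -0.04. Of the 7, 2 passed the unadjusted criterion, both higher. Grin1 was at 197, 109 and 22.6 CPM in Memantine and at 41.6, 18.7 and 16.0 CPM in Glutamate, beside 44.0, 98.1 and 94.1 CPM in Control. Memantine 1 and 2 were above every Glutamate library, and Memantine 3 lay among them. The log2 fold change was 2.02 (SE 0.52), and without Memantine 3 it was 2.52 (edgeR adjusted p = 0.00505). Grin2b, the subunit that prevails in the young cortex, gave 38.8, 62.3 and 3.38 CPM against 8.78, 13.0 and 8.27 CPM. Here Memantine 3 was the lowest of the 6 libraries. The log2 fold change was 1.54 (SE 0.65), and 2.16 without Memantine 3 (edgeR adjusted p = 0.0224).

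The other 5 subunits did not pass the criterion. Grin2a, which gains weight as the cortex matures, had 113 counts summed over Memantine and 11 over Glutamate. The former were 12, 101 and 0 in Memantine 1, 2 and 3, nearly all in Memantine 2, and Glutamate 1 also had 0. Grin2d gave 1.07, 6.50 and 0.359 CPM against 0.258, 1.33 and 0.584 CPM. For Grin2c the log2 fold change was -0.79 (SE 0.59), for Grin3a -0.53 (SE 0.73) and for Grin3b 0.32 (SE 0.70), with overlapping ranges. The median of the subunits was 2.12, 2.17 and -0.62 within pairs 1, 2 and 3, and 1 of 7 was higher in pair 3.

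AMPA and kainate receptors carry fast excitation, and of 18 genes for their subunits and auxiliary proteins 6 were higher by the unadjusted criterion and 0 lower (median 0.82, with 1.15, 0.83 and -0.11 within the pairs). Shisa7, an auxiliary protein that is not particular to these receptors, was at 95, 74.0 and 12.1 CPM against 16.3, 17.3 and 9.34 CPM. Cacng3, an auxiliary subunit of AMPA receptors, gave 19.8, 16.8 and 3.09 CPM against 5.55, 2.22 and 1.85 CPM. The kainate receptor subunit Grik2 had a log2 fold change of 0.86 (SE 0.32) and 13.3 CPM in both Memantine 3 and Glutamate 3. Metabotropic receptors act through G proteins, and 2 of 6 tested passed, both higher, with list medians of 0.71, 1.56 and 0.09 within the pairs. These were Grm7, with 206 counts summed over Memantine and 9 over Glutamate, nearly all of the former in Memantine 2 (11.1 CPM), and Grm4, with 8.70, 9.11 and 1.22 CPM against 2.20, 3.30 and 0.292 CPM. Grm2 did not pass (log2 fold change 1.15, SE 0.56), although its Memantine range lay above that of Glutamate.

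On the postsynaptic side, 9 of 18 scaffold and kinase genes were higher by the unadjusted criterion and 0 lower (median 0.97). Camk2b, a calcium-dependent kinase of the synapse, was at 528, 426 and 79.0 CPM in Memantine and at 161, 82.8 and 105 CPM in Glutamate. Memantine 3 was the lowest of the 6. Shank2, a scaffold, had a log2 fold change of 1.71 (SE 0.49), with 0.13 within pair 3. Within the pairs the median was 1.29, 1.85 and -0.28, and 6 of 18 genes were higher in pair 3.

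On the presynaptic side stood one of the lists with the largest share, with 17 of 27 genes of vesicles and release higher by the unadjusted criterion (62.96%) and 0 lower. The median was 1.49, and within the pairs it was 1.5, 2.26 and 0.10. Stx1a, a membrane protein of the fusion complex, had the smallest p after Slc17a7. It was at 178, 64.7 and 20.5 CPM against 39.1, 10.5 and 13.3 CPM. Memantine 3 was above its own pair partner and below Glutamate 1. Snap25, also of that complex, gave 33.0, 129 and 14.1 CPM against 9.94, 29.5 and 14.2 CPM (log2 fold change 1.46, SE 0.52). Without Memantine 3, edgeR called 18 of the 27 higher at the adjusted p, where 4.25% of all genes were called higher.

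Of 10 synaptic adhesion genes 2 passed, both higher. They were LRRTM1 and Nrxn2, a presynaptic neurexin with 373, 360 and 120 CPM against 112, 168 and 118 CPM. The median of the list was -0.72 in pair 3, after 0.41 and 0.94 in pairs 1 and 2.

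Inhibitory neurons use GABA as their transmitter. Of 19 genes for GABA synthesis, transport and receptors, 5 were higher by the unadjusted criterion and 0 lower (median 0.97). Within the pairs the median was 0.78, 1.83 and -0.45, and 6 of 19 genes were higher in pair 3. The 3 genes of smallest p, given here, were among those 6. Gad1 and Gad2 make GABA from glutamate. Gad1 was at 191, 153 and 44.6 CPM against 66.1, 55.7 and 40.6 CPM, and Gad2 at 23.2, 40.7 and 5.10 CPM against 9.17, 5.14 and 3.99 CPM. Slc32a1, which loads GABA into vesicles, gave 23.9, 30.4 and 8.41 CPM against 9.30, 6.29 and 5.93 CPM. Without Memantine 3, edgeR called these 3 with adjusted p of 0.00708, 0.011 and 0.0123. Their choice by p had used the same other libraries. For the other transmitter class, the vesicular glutamate transporter Slc17a6 (VGLUT2) gave 12.2, 18.1 and 1.37 CPM against 2.20, 2.22 and 0.876 CPM, and the transcription factor Neurod6 of excitatory cortical neurons gave 47.2, 44.4 and 4.89 CPM against 14.6, 4.25 and 5.55 CPM. Of all 15 neuron markers, 9 passed and all were higher.

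Voltage-gated calcium channels admit calcium on depolarisation, and 10 of 15 of their genes were higher (66.67%) and 0 lower by the unadjusted criterion, with a median of 1.44. The auxiliary subunit Cacnb1 was at 51.8, 42.4 and 15.1 CPM against 14.3, 10.9 and 13.7 CPM, so that all Memantine libraries were above. Cacnb2 and Cacna2d3, also auxiliary subunits, had log2 fold changes of 1.49 (SE 0.45) and 1.67 (SE 0.50). Within the pairs the median was 1.51, 1.95 and -0.08.

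Potassium channels, which bring the membrane back to rest, had 11 of 25 genes higher and 0 lower (median 1.00, with 1.32, 1.27 and -0.19 within the pairs). Kcnc2, a channel of fast-spiking interneurons, was at 3.33, 2.67 and 0.862 CPM against 0.387, 0.254 and 0.389 CPM. Kcnip2, an auxiliary subunit, gave 12.5, 11.6 and 5.96 CPM against 3.10, 4.70 and 3.70 CPM. In both the groups did not overlap, whereas Kcna6 was at 67.7 and 35.6 CPM in Memantine 1 and 2 and at 6.04 CPM in Memantine 3, below every Glutamate library. Sodium channels carry the action potential, and 2 of 8 passed (25%, beside 7.96% of all genes). They were the beta subunits Scn3b (134, 106 and 24.6 CPM against 30.6, 28.7 and 25.3 CPM) and Scn2b (log2 fold change 1.06, SE 0.35, and -0.30 within pair 3). The median of the sodium channels was 0.48, 1.67 and -0.39 within the pairs. The pore subunit Scn3a was high in Memantine 2 alone, with 2.36, 46.4 and 1.37 CPM against 2.45, 8.32 and 1.07 CPM.

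Of 23 genes that pump, store or sense calcium, 9 were higher and 0 lower by the unadjusted criterion, and the medians within the pairs were 0.94, 1.18 and -0.10. Atp2b2, a pump that exports calcium across the plasma membrane, was at 22.6, 56.0 and 8.19 CPM against 8.40, 7.36 and 7.30 CPM. Itpr1, a release channel of internal stores, and the calcium-binding protein Calb2 had log2 fold changes of 1.95 (SE 0.63) and 1.19 (SE 0.38), with -0.20 and -0.0085 within pair 3. The neuronal cytoskeleton had 6 of 20 higher and 0 lower. Stmn2, a regulator of axonal microtubules, was at 2117, 728 and 361 CPM against 667, 190 and 297 CPM, and Tubb3, the tubulin that marks neurons, at 475, 598 and 172 CPM against 214, 141 and 165 CPM. In pair 3 the median of this list was -0.42, with 4 of 20 genes higher.

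Neuropeptides, granins and somatostatin receptors were the exception in pair 3, where 15 of 16 genes were higher, beside 49.4% of all tested genes. The list had 9 genes higher and 0 lower by the unadjusted criterion (median 1.26, and 0.83, 1.42 and 0.32 within the pairs). Sstr3, a somatostatin receptor of the neuronal cilium, was counted 46 times in all of Memantine and 0 times in Glutamate. The counts were 30, 15 and 1 in Memantine 1, 2 and 3. A floor of 3 counts over the group puts the sum at least 12.6-fold higher, which rests on Memantine 1 and 2. The granin Chgb was at 96.6, 93.1 and 26.9 CPM against 22.6, 35.0 and 22.5 CPM, and Sstr2 at 19.1, 8.61 and 2.37 CPM against 2.45, 2.60 and 2.33 CPM. Several peptides of interneurons had similar differences in all pairs without passing. Npy (neuropeptide Y) differed by 0.43, 0.73 and 0.78 on the log2 scale within pairs 1, 2 and 3, and Sst (somatostatin) by 0.55, 0.83 and 0.74. Both were singled out after their values were seen.

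Over 14 lists of neuronal and synaptic genes together, 217 different genes were tested, 90 were higher by the unadjusted criterion (41.5%) and 0 were lower. Within pairs 1 and 2, 186 and 199 of them were higher, and within pair 3 it was 84. Without Memantine 3, edgeR called 78 of them at the adjusted p (35.9%), all higher, beside 4.25% of all genes called higher. That fit keeps only Memantine 1 and 2, and the lists were chosen with earlier results of these data known. These shares therefore describe the lists and are not independent support. The list of neurotrophins and their receptors held none of the 90. Bdnf, a growth factor that neuronal activity induces, was lower in each pair, with 4.40, 3.78 and 1.44 CPM against 7.88, 5.21 and 2.92 CPM, and overlapped between the groups (log2 fold change -0.76, SE 0.45). Ntf3 and the receptor Ntrk2 had log2 fold changes of 1.98 (SE 1.16) and -0.25 (SE 0.38).

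**Figure D5:**
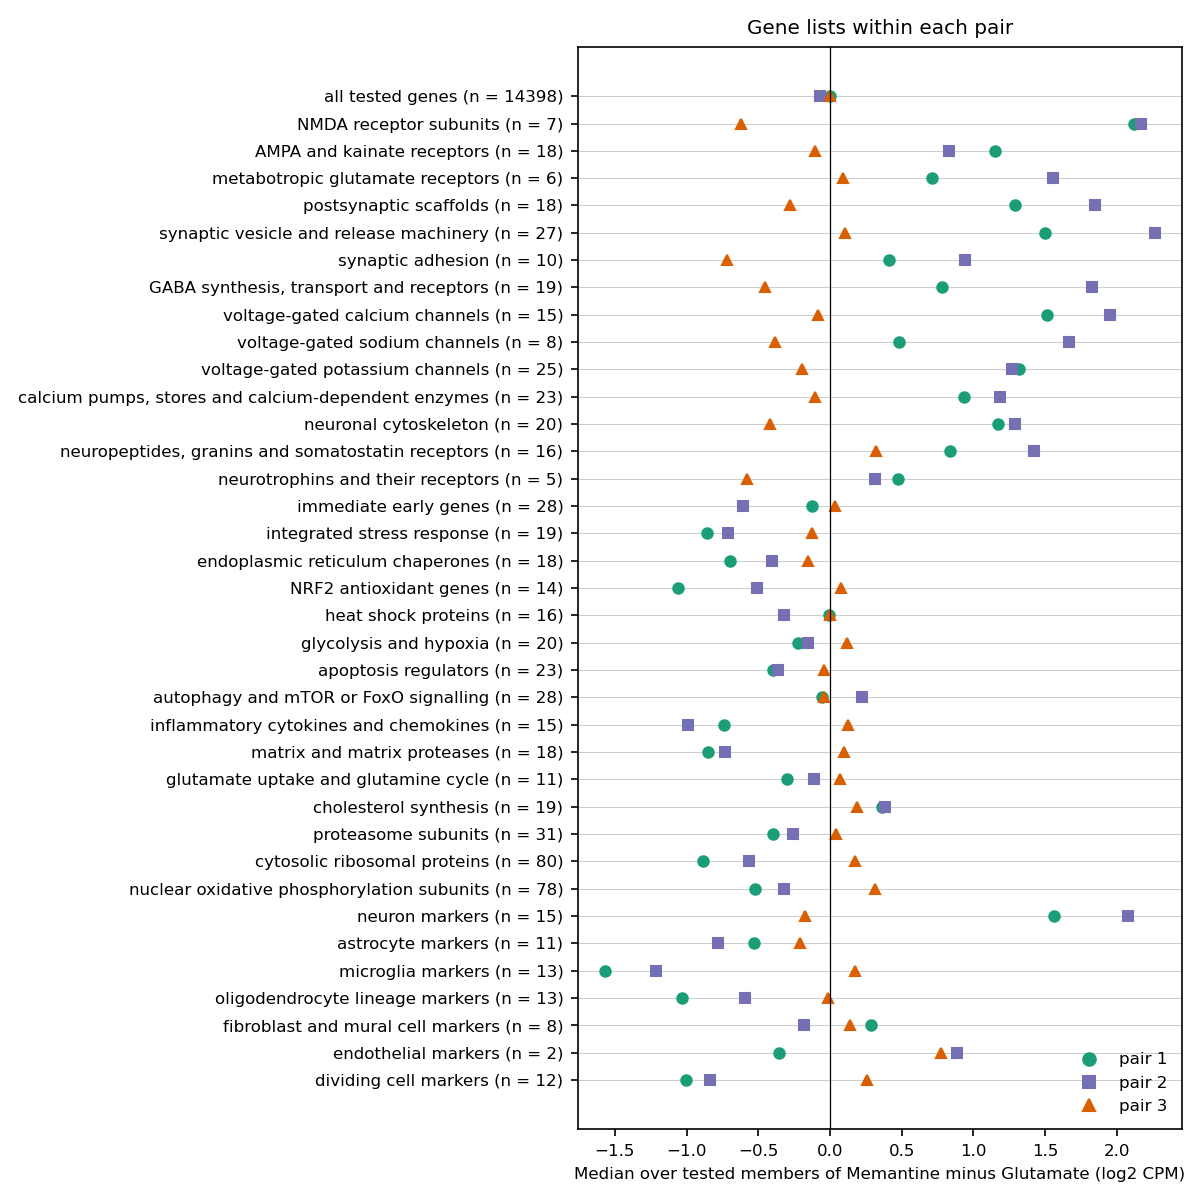
Median difference of Memantine and Glutamate (log2 CPM) over the tested members of each gene list, within pairs 1, 2 and 3, with the median of all tested genes in the top row. Lists of receptors, channels and synapses lie right of 0 in pairs 1 and 2 and near or left of 0 in pair 3, as for release machinery with 1.5, 2.26 and 0.10.

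Immediate early genes are switched on within minutes by neuronal firing and stress. Of 28 tested, 2 were higher by the unadjusted criterion and 0 lower, near the 7.16% and 0.799% of all genes, and the medians within the pairs were -0.13, -0.61 and 0.03. Ptgs2, the inducible cyclooxygenase, was at 1.83, 2.22 and 0.359 CPM against 0.129, 0.127 and 0.0973 CPM, and the transcription factor Egr3 at 0.537, 6.39 and 0.503 CPM against 0, 0.762 and 0.292 CPM. Both were at low levels. Fos, the classical marker of activity, gave 47.2, 19.7 and 41.0 CPM in Memantine, 27.6, 43.5 and 80.2 CPM in Glutamate and 9.10 to 13.7 CPM in Control. It was higher in Memantine in pair 1 and lower in pairs 2 and 3. Atf3, a factor induced by injury, was at 16.9, 10.9 and 26.2 CPM against 50.6, 30.3 and 28.5 CPM. All Memantine libraries were below all Glutamate libraries, and the log2 fold change of -0.94 (SE 0.48) did not pass. Nr4a3 had a log2 fold change of 0.98 (SE 0.48) and Arc of 0.16 (SE 0.89). Npas4, a factor specific to neurons, had 9, 3 and 10 counts in all of Memantine, Glutamate and Control and was not tested.

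The integrated stress response adapts protein synthesis to amino acid shortage and misfolded protein. All 19 of its tested genes had a negative log2 fold change (median -0.51), but 0 passed, and the medians within the pairs were -0.86, -0.71 and -0.12. Ppp1r15a, which ends this response, was at 117, 62.5 and 108 CPM against 320, 122 and 118 CPM, below in all libraries. Shmt2 and Trib3 had log2 fold changes of -0.62 (SE 0.30) and -0.73 (SE 0.37). Ddit3 (CHOP), its death-promoting factor, gave 178, 14.4 and 79.0 CPM against 211, 21.9 and 70.1 CPM, in which the spread between pairs exceeded the difference.

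Of 18 chaperones of the endoplasmic reticulum, 17 had a negative value (median -0.45, with -0.70, -0.41 and -0.15 within the pairs) and 1 passed, Pdia4 (log2 fold change -0.76, SE 0.35). Creld2 gave 28.7, 11.2 and 63.8 CPM against 86.1, 26.4 and 59.1 CPM and was called lower by edgeR without Memantine 3 (adjusted p = 0.0225). Dnajc3 had a log2 fold change of -0.46 (SE 0.25). The 14 antioxidant genes driven by NRF2 all had negative fitted values (median -0.38), and 0 passed. Within the pairs the median was -1.06, -0.51 and 0.08, and 9 of 14 genes were higher in pair 3. Hmox1, a haem-degrading enzyme, gave 261, 249.9 and 343 CPM against 697, 393 and 327 CPM, with 72.8, 183 and 279 CPM in Control. Prdx1, a peroxidase, gave 241, 198 and 818 CPM against 876, 349 and 858 CPM, and Gclm and Srxn1 had log2 fold changes of -0.64 (SE 0.34) and -1.31 (SE 0.92). Of 16 heat shock proteins 0 passed, and 8, 5 and 8 were higher within pairs 1, 2 and 3. Hspb8 was at -0.68 (SE 0.32), Hsph1 at 0.80 (SE 0.39) and Hspa1a at 1.19 (SE 0.61) on the log2 scale.

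Of 23 apoptosis regulators 0 passed (median -0.26, with -0.39, -0.36 and -0.04 within the pairs). The smallest p belonged to the survival factor Mcl1 (log2 fold change -0.46, SE 0.34) and to the death-promoting Pmaip1 (-0.65, SE 0.49) and Bcl2l11 (0.61, SE 0.46). For autophagy with mTOR and FoxO signalling, 1 of 28 passed (median 0.16), and 13, 20 and 12 were higher within pairs 1, 2 and 3. This was Ulk1, a kinase that starts autophagy, with 28.8, 43.8 and 18 CPM against 9.69, 25.1 and 12.1 CPM. Atg9a and Tsc2 had log2 fold changes of 0.51 (SE 0.26) and 0.67 (SE 0.36).

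Among the lower genes were growth factors, matrix enzymes and genes of the oligodendrocyte lineage. Bmp4, a growth factor that directs neural progenitors to the astrocyte fate, was at 12.3, 15.8 and 32.0 CPM in Memantine and 50.5, 41.3 and 59.3 CPM in Glutamate, with 22.8 to 25.5 CPM in Control. All Memantine libraries were below Glutamate, and the level was 2.48-fold lower (log2 fold change -1.31, SE 0.39, edgeR adjusted p = 0.271, and 0.0124 without Memantine 3). Mmp14, a membrane-bound metalloproteinase, gave 44.1, 101 and 102 CPM against 102, 195 and 196 CPM, lower within each pair (log2 differences of -1.20, -0.95 and -0.94). Ezh2, the methyltransferase of the Polycomb complex, gave 37.2, 26.2 and 43.8 CPM against 54.8, 53.3 and 75.1 CPM. Adpgk, a glucokinase that uses ADP, gave 15.1, 17.3 and 25.2 CPM against 30, 30.9 and 35.9 CPM. Cdkn1a (p21) stops the cell cycle after damage, and it gave 38.2, 83.6 and 85.5 CPM against 112, 167 and 107 CPM. In Ezh2, Adpgk and Cdkn1a, as in Pnlip (a lipase, log2 fold change -0.91) and Smagp (an adhesion glycoprotein, -1.29), the groups did not overlap. In pair 3, 107 of the 115 genes past the criterion on the lower side were lower too, with a median of -0.53, and that pair had itself gone into the choice.

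Nkx2-2, a transcription factor of oligodendrocyte precursors, gave 1.18, 10.2 and 7.33 CPM against 9.17, 18.8 and 12.5 CPM. Memantine was lower in every pair while the groups overlapped. Of the 13 markers of this lineage 3 passed, all lower (23.1%, beside 0.799% of all genes). Among them were Mbp (a myelin protein, log2 fold change -1.01, SE 0.39) and Mag (a myelin-associated glycoprotein, -1.11, SE 0.48). Of the 13, 5 were higher within pair 3, and without Memantine 3 edgeR called 0 at the adjusted p. Limd1, which binds kinases of the Hippo pathway, had a log2 fold change of -1.14 (SE 0.40), and the unnamed transcript ENSRNOT00000098980 of -1.03 (SE 0.35).

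Matrix genes and matrix proteases had 3 of 18 lower by the unadjusted criterion (16.7%, beside 0.799% of all genes) and 0 higher (median -0.46, with -0.85, -0.73 and 0.10 within the pairs). Beside Mmp14 these were Ccn1 and Ccn2, secreted matrix proteins and well-known targets of the Hippo effector YAP and its partner TEAD. Ccn1 was at 17.9, 7.78 and 46.6 CPM against 211, 49.5 and 36.9 CPM, and Control had 14.3, 3.98 and 7.05 CPM. Memantine 1 and 2 were below every Glutamate library and Memantine 3 was above its partner. The log2 fold change was -1.78 (SE 0.66), and -2.99 without Memantine 3 (edgeR adjusted p = 0.0105). Ccn2 gave 3.76, 5.0 and 3.74 CPM against 27.0, 12.3 and 4.09 CPM. Control had 5.42, 6.23 and 4.42 CPM, and Glutamate 3 lay among the Memantine libraries, well under Glutamate 1 and 2. Timp1, an inhibitor of metalloproteinases that astrocytes release, gave 202, 12.1 and 173 CPM against 414, 24.6 and 115 CPM and did not pass (log2 fold change -0.40, SE 0.59).

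The promoter of Ccn2 is printed because the gene had the largest fold change among the 12 lower genes and because its regulation by TEAD is well known. It is again the 250 bases before the start in RefSeq (GRCr8, chr1:22624615-22624864, minus strand, written 5′ to 3′). Capitals mark the TEAD letters GGAATG, 166, 101 and 92 bases before the start, and the TATA box letters TATAAA at 31 bases.

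Ccn2: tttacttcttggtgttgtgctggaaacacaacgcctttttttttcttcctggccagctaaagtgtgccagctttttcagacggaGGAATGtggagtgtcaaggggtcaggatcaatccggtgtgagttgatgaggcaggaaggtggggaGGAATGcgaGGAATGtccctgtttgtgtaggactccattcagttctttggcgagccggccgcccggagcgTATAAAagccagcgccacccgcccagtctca

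These letters are a description of the sequence and not evidence of a bound factor. Of the tested genes, 9886 had a promoter in RefSeq. GGAATG was found on either strand in 9.6% of these, in 9.3% of 667 promoters of genes past the criterion on the higher side and in 10.7% of 75 on the lower side. TATAAA was in 6.2%, 6.6% and 12%, and GGGCGG in 59.9%, 61.6% and 57.3%. The letters TGACGTCA, bound by CREB, were in 3.01%, 3.45% and 0%, and TGAGTCA, bound by AP-1 factors such as Fos and Atf3, in 2.92%, 1.8% and 0%. On the lower side 12% stood for 9 of 75 promoters, and a share of 3.01% would be only a few. The 0% there is therefore no clear difference.

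Of 15 tested cytokine, chemokine and related genes 2 passed, both lower (13.3%, beside 0.799% of all genes). The median was -0.67, with -0.74, -0.99 and 0.13 within the pairs. The chemokine Ccl2, which attracts monocytes, was at 3.01, 1.67 and 9.27 CPM against 84.5, 4.83 and 12 CPM, and Ccl7 at 2.15, 0.833 and 5.03 CPM against 27.4, 1.27 and 6.91 CPM. Both were lower in each pair, and Glutamate 1 stood far above the other libraries. Their log2 fold changes came to -2.77 (SE 1.06) and -1.95 (SE 0.90), and without Memantine 3 the edgeR adjusted p were 0.133 and 0.192. Cxcl1, at 0.389 CPM or less in Memantine and 0.486 to 1.42 CPM in Glutamate, did not pass.

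Markers of glia other than the oligodendrocyte lineage followed the summed levels. All 13 microglia markers had a negative log2 fold change (median -0.65), and 1 passed. C1qa, a complement protein of microglia, gave 7.95, 10.3 and 173 CPM against 52.6, 25.3 and 153 CPM, so that Memantine 1 and 2 were the lowest and Memantine 3 the highest of the 6. Within the pairs the median of the list was -1.57, -1.22 and 0.17, and without Memantine 3 edgeR called 3 of 13 lower (23.1%, beside 0.833% of all genes). Cx3cr1 had a log2 fold change of -0.84 (SE 0.56). Of 11 astrocyte markers 0 passed the unadjusted criterion, and without Memantine 3 edgeR called 0 at the adjusted p. The medians within the pairs were -0.53, -0.78 and -0.21. Gfap, the intermediate filament of astrocytes, was at 2876, 1467 and 6530 CPM against 4142, 2115 and 7559 CPM, lower in each pair (log2 fold change -0.39, SE 0.50). Fgfr3, Sox9 and Slc1a3 had log2 fold changes of -0.72 (SE 0.57), -0.52 (SE 0.54) and -0.36 (SE 0.38).

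Of 12 markers of dividing cells 0 passed (median -0.46, with -1.0, -0.83 and 0.26 within the pairs), and without Memantine 3 edgeR called 3 lower (25%, beside 0.833% of all genes). Pcna, the replication clamp, was at 35.5, 47.9 and 146 CPM against 109, 85.7 and 137 CPM (adjusted p = 0.0119 without Memantine 3). Ccna2 and Top2a had log2 fold changes of -0.61 (SE 0.31) and -0.44 (SE 0.31). Of 8 fibroblast and mural cell markers and 2 endothelial markers 0 passed. Tagln, a protein of smooth muscle, was at 97.1, 38.4 and 391 CPM against 393, 50.5 and 395 CPM, while Pdgfrb and Vtn had log2 fold changes of 0.34 (SE 0.44) and 0.55 (SE 0.74). Pecam1 and Egfl7 were at 1.26 (SE 0.69) and -0.31 (SE 0.61).

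Housekeeping lists showed the turn of the third pair over many genes. Of 80 cytosolic ribosomal protein genes 79 had a negative log2 fold change (median -0.39), and 0 passed. Within pairs 1, 2 and 3 the number of higher genes was 0, 1 and 66, and the median was -0.89, -0.56 and 0.17. For 78 nuclear subunits of oxidative phosphorylation the median was -0.13, with 9, 6 and 67 higher, and 1 passed, Ndufa10l1 (log2 fold change -1.0, SE 0.45). For 31 proteasome subunits it was -0.19, with 8, 0 and 16 higher, and 0 passed. With the ribosomal RNA share as a covariate the 3 medians were 0.02, 0.28 and 0.10, of the opposite sign. The members with the smallest p were Rps18l1, Rps27l and Rpl10l (-0.91, -0.74 and -0.88) among ribosomal proteins, Uqcrfs1 and Cox7a2l (-0.65 and -0.54) in respiration, and Psmd14, Psma3 and Psma5 (-0.31, -0.31 and -0.39) in the proteasome. Several of these, among them Rps18l1, Rps27l, Rpl10l and Ndufa10l1, are copies of closely related genes, between which reads may have been split, and their values are uncertain.

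In metabolism, Slc2a3 (GLUT3), the glucose transporter of neurons, was at 42.1, 53.0 and 6.97 CPM against 10.8, 6.54 and 6.42 CPM (log2 fold change 1.99, SE 0.60). Hk2, a hexokinase, went the other way, with 28.8, 17.3 and 14.4 CPM against 40.4, 32.5 and 25.3 CPM and lower values in each pair (-0.72, SE 0.33). They were the 2 of 20 glycolysis and hypoxia genes that passed (10%, beside 7.96% of all genes), and Pfkp did not (0.71, SE 0.42). In glutamate uptake and the glutamine cycle 1 of 11 passed, and it was higher, a share of 9.09% and near the 7.96% of all genes. Glul, the glutamine synthetase of astrocytes, and the glutamine transporter Slc38a3 had log2 fold changes of -0.48 (SE 0.44) and -0.34 (SE 0.33).

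Of 19 genes of cholesterol synthesis, 2 were higher by the unadjusted criterion and 0 lower, a share of 10.5% beside 7.96% of all genes. The median differences were 0.36, 0.39 and 0.19 within the pairs, with positive values in 15, 15 and 17 genes. Hmgcs1, an early enzyme of the pathway, was at 685, 593 and 394 CPM against 364, 313 and 233 CPM, so that every Memantine library was above every Glutamate library and the log2 differences within the pairs were 0.91, 0.92 and 0.76. Control was at 480, 378 and 311 CPM. Lss, the enzyme that closes the sterol rings, had 52.3, 51.7 and 19.2 CPM against 15.2, 30.7 and 17.3 CPM, and Srebf2, the transcription factor of the pathway, a log2 fold change of 0.60 (SE 0.29). Without Memantine 3, edgeR called Lss (adjusted p = 0.0264) and not Hmgcs1 (0.0642).

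When Memantine 3 was left out, 3 of the 10 genes with the smallest p that edgeR called higher were also higher within pair 3 and 7 were lower. Hpcal4 and Agtpbp1 were among the 3, with differences of 0.77 and 0.41 on the log2 scale. Those described next were named after their values were seen. Amer3, a regulator of the Wnt pathway, was at 53.8, 41.7 and 4.10 CPM in Memantine 1, 2 and 3 and at 8.01, 6.86 and 4.09 CPM in Glutamate. Lingo1, a neuronal receptor that limits axon growth and myelination, gave 225, 104 and 27.7 CPM against 35.8, 23.5 and 28.0 CPM. Gas7, which is involved in neurite outgrowth, gave 133, 324 and 16.8 CPM against 23.0, 37.2 and 20.4 CPM. In each of these 3 Memantine 3 was within 1 CPM of its partner or below it. Their log2 fold changes without Memantine 3 were 2.81 (SE 0.33), 2.42 (SE 0.30) and 2.88 (SE 0.37), with adjusted p of 0.00374, 0.00374 and 0.00377. Of the 10 of smallest p called lower, 4 were also lower within pair 3 and 6 were higher. The 4 were Bmp4 (-0.89 on the log2 scale), Cnn2 (-0.21), Fcrl2 (-0.13) and Prdx1l1 (-0.037). Among the 6, Cd9, a tetraspanin of the cell surface, gave 16.9, 17.6 and 138 CPM against 81.2, 37.1 and 119 CPM, and Mgst1, a glutathione transferase, 16.6, 14.8 and 65.7 CPM against 52.0, 27.2 and 55.7 CPM. Memantine 1 and 2 were below all Glutamate libraries in both, and Memantine 3 was above its partner. Control held 43.4, 25.9 and 69.1 CPM of Cd9 and 39.1, 30.4 and 31.9 CPM of Mgst1.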

How the data were processed

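According to the paper, reads were cleaned by the authors (Trimmomatic, then Cutadapt) and Salmon was run against Ensembl rat transcripts of rn6 with the genome as decoy, after which tximport summed transcripts to genes. The deposited values are therefore expected counts (estimated, unscaled counts of reads per gene), 31463 rows per library. The labels also list STAR. The sources differ on library kit and instrument, and neither states the version of Salmon nor the strand setting of the counting, so that overlapping and near-identical genes may share counts. Depth was 10406915 to 13354633 counts in the 6 libraries, which limits genes at or below a few CPM.

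Counts were rounded and tested with edgeR 4.0.16 (R 4.3.3). Genes passing filterByExpr (minimum count 10, total 15) numbered 14398. The model held 1 mean per group and the replicate number as a block over all 18 libraries, scaled by TMM, with the two-sided quasi-likelihood F test and Benjamini-Hochberg adjustment over all tested genes. The design had been written for counts and was kept. Samples sharing a number in the Memantine and Glutamate groups deviated together from their group means (Pearson r over genes 0.76, 0.89 and 0.57 for numbers 1, 2 and 3), so that the numbers were taken as pairs. SE is the standard error from the F statistic. Differences within pairs are log2 CPM with a prior count of 2. The script was tested on simulated data. Alternatives were the fit without the block, edgeR's likelihood-ratio test (the study's test), DESeq2 1.42.0, limma 3.58.1 (voom with quality weights), RLE scaling, no filter, the 6 libraries alone, ribosomal RNA rows (78, recognised by RefSeq names of GRCr8) removed, the ribosomal RNA share as covariate, and each library left out. Leaving out both libraries of a number, and other tests without Memantine 3, were added after the data were seen.

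Members, gene lists and markers were chosen with earlier results of these data known. Genes were named by rule. The rule takes the 12 of smallest p on each side among genes past the unadjusted criterion whose mean log2 CPM reached 1 and whose sign did not differ between the 3 pairs, the 3 of smallest p in each list, and fixed genes (the 7 NMDA subunits, Gfap, Snap25, Klhdc8a, Sstr3, Timp1, Hmox1, Ddit3, Atf3, Bdnf, Npas4, Arc and Fos). Some of these genes are not reported here. Promoters and motifs are from RefSeq (GRCr8), another build than the authors', and no other coordinates are given.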

Additional observations from a re-analysis of the deposited data

How the results depend on the processing

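The number of genes called at the adjusted p was 0 in most settings. It was 98 with the likelihood-ratio test, 201 with DESeq2 and 737 with voom and quality weights (644 higher and 93 lower), which gave Memantine 3 a weight of 0.25 and Glutamate 3 one of 4.33. Leaving out 1 library gave 0 to 745 genes with the replicate block and 0 to 254 without it, and in both fits only the loss of Memantine 3 gave any. Without Memantine 3, the likelihood-ratio test called 1309 and DESeq2 1587, and without both libraries of pair 3 edgeR called 175. The cause was not tested.

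By the unadjusted criterion, 1146 genes became 729 without the replicate block, 2950 with voom (1770 higher and 1180 lower), and 1760 with the ribosomal RNA share as covariate (996 higher and 764 lower). Using only the 6 libraries gave 1274 (911 higher and 363 lower). Leaving out 1 library gave 540 to 2932 with the block (713 without Glutamate 2) and 416 to 1976 without it. The latter came to 469, 585 and 1976 without Memantine 1, 2 and 3, and to 717, 784 and 416 without Glutamate 1, 2 and 3. Without both libraries of pair 1, 2 or 3 there were 485, 414 and 2119 genes, and without Memantine 3 the likelihood-ratio test gave 3216 and DESeq2 3285. The median of all genes stayed within 0.1 of 0 in every setting.

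Of the 130 tested named genes, 70 passed the unadjusted criterion, and none of these 70 turned in any of 26 alternatives. The same libraries had gone into that criterion, which left little room for a turn, so that this only describes the choice. The 70 stayed past it in 52, 53 and 67 cases without Memantine 1, 2 and 3, and in 59 without the block. The pairing changed no call at the adjusted p with all libraries.

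Genes whose log2 fold change turned, with the values after the turn, were these. With the covariate, Arc -0.34, Ddit3 0.052, Ntrk2 0.080 and Sox9 0.27. With voom, Arc -0.79, and without the block, Arc -0.21. Without Memantine 3, Arc -0.86 with and -1.10 without the block, -0.73 by the likelihood-ratio test and -0.71 by DESeq2, and Grin3a 0.36 without the block. Without pair 1, Arc -0.24, Egfl7 0.058, Grin3b -0.10, Psma5 0.020 and Timp1 0.16, and without pair 3, Arc -0.086. Without Glutamate 1, with and without the block, Arc -0.39 and -0.78, Ddit3 0.22 and 0.97, Egfl7 0.17 and 0.14, Grin3b -0.21 and -0.32, Timp1 0.41 and 0.88, and without the block Pdgfrb -0.055. Without Memantine 2, with and without the block, Ddit3 0.25 and 0.34, Scn3a -0.33 and -1.10, Timp1 0.088 and 0.019, and without the block C1qa 0.23, Egfl7 0.14, Gfap 0.029, Grin2d -0.10, Grin3b -0.019 and Sox9 0.21. Without the block and Memantine 1, C1qa 0.25, Grin3a 0.41, Slc38a3 0.12 and Vtn -0.17. Without the block and Glutamate 2, Grin3a 1.29, Mcl1 0.23, Pmaip1 0.075, Slc1a3 0.18 and Top2a 0.074. Without the block and Glutamate 3, C1qa 0.71, Fos 0.014, Gfap 0.21 and Sox9 0.012.

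Of 36 list medians, 15 changed sign in some alternative. Among them were the NMDA receptor subunits without Memantine 2 and the block (-0.019). Without Memantine 2 but with the block, GABA genes (-0.19), adhesion (-0.28), sodium channels (-0.034) and autophagy (-0.0037) turned. With the covariate, ribosomal proteins (0.017), oxidative phosphorylation (0.28) and proteasome subunits (0.095) turned. Microglia markers turned without Glutamate 3 and the block (0.42).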
